A study of Mus musculus with 4 samples.

Results

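The germ cell RNA and piRNA pathway genes examined here are Dazl, Ddx4, Mael, Asz1, Tdrd1, Tdrkh, Mov10l1, Tex19.1, Stk31 and Slc25a31. They were chosen by symbol, with earlier results of these data known. Of the 10 genes, 9 have a row of their own among the 14099 named rows of the expression tables. Asz1, a scaffold protein on the surface of germ cell mitochondria, is in none of these rows, so its RNA level was not analysed here. The cells were mouse embryonic stem cells (ESCs), with 2 libraries labelled Naa10-KO and 2 labelled WT, and both genotypes have a C57BL6/JF1 F1 background. Per the labels, the lines came from a cross of Naa10-/X C57BL/6 females with WT JF1 males, and the WT cells are littermates of the Naa10-KO cells. All 4 libraries share culture in serum-free N2B27 medium with LIF and inhibitors of Mek and Gsk3, with 5 passages on irradiated feeder fibroblasts followed by 5 feeder-free passages. The labels call the libraries biological replicates without saying whether they are separate lines, so the spread behind the p-values is that of these libraries and may be technical. Naa10 is the catalytic subunit of the NatA complex, which acetylates the N-termini of many proteins, and the series title asks about its role in DNA methylation and genomic imprinting.

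PIWI-interacting RNAs (piRNAs) are small RNAs of the germline that guide PIWI proteins to transposon transcripts and, in fetal male germ cells, guide DNA methylation to transposon promoters. Their precursors are unwound, cut and trimmed at granules beside the mitochondria, where proteins with Tudor domains hold the PIWI proteins by methylated arginines. Many genes of this pathway have CpG-rich promoters that are methylated and silent in somatic tissues. Mouse ESCs cultured with Mek and Gsk3 inhibitors carry little DNA methylation and transcribe some of these genes at low levels.

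Because methylation of such promoters is central to what is known of these genes, stretches of the members' promoters are shown first. RefSeq windows (build GRCm38.p6) of 250 bases before to 50 bases after the start site matched all 10 genes by symbol, and the most upstream start was used for Stk31 and Tdrd1, which have 2 and 3. The members' windows held a median of 23 CpG dinucleotides and the median window of 27025 genes held 7. The ratio of observed to expected CpG was 0.789 at the median of the members and 0.389 at the median of all genes. Ddx4 had 38 CpG, the most among the members, and Tex19.1 had 16, the fewest. Counts of CpG describe the sequence only; no methylation was measured in these files.

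Promoters of germline genes are known to be bound in mouse ESCs by the repressor complex PRC1.6, whose subunits Mga and Max recognise the E-box CACGTG and whose subunit E2f6 recognises TCCCGC. Both motifs were searched on both strands in all windows, together with TAACNG, the core site of Myb factors. The E-box was in 6 of the 10 member windows (Mael, Ddx4, Mov10l1, Stk31, Slc25a31 and Tdrd1), against 7.24% of all windows and 11.6% of the 9059 windows with at least 16 CpG. TCCCGC was in 4 (Mael, Ddx4, Tex19.1 and Slc25a31), against 20.0% of all windows and 46.0% of those with at least 16 CpG. TAACNG was in 4 (Mael, Mov10l1, Tdrkh and Slc25a31), against 23.2% of all windows and 15.6% of those with at least 16 CpG. No match of one motif overlapped a match of another. Dazl and Asz1 held none of the 3 motifs in this window. A match is a description of letters and not a bound site.

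The stretches around the E-boxes are given 5′ to 3′ on the gene's strand, all upstream of the start site, with the E-box in capitals. In Mov10l1 the capitals also mark 2 matches of TAACNG, the first of which is separated from the E-box by 1 base.
Mael (chr1:166238940-166238989, minus strand): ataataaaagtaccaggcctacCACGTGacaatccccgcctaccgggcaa
Ddx4 (chr13:112652312-112652361, minus strand): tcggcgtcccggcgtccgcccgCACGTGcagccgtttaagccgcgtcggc
Mov10l1 (chr15:88982744-88982793, plus strand): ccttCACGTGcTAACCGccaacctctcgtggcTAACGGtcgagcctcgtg
Stk31 (chr6:49395462-49395511, plus strand): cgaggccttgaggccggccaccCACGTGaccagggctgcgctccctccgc
Slc25a31 (chr3:40708756-40708805, plus strand): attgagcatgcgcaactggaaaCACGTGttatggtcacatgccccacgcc
Tdrd1 (chr19:56826159-56826208, plus strand): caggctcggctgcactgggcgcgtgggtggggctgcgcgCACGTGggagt

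Tex19.1, the member with the highest RNA level, is shown around its TCCCGC match, which lies on the other strand and so reads GCGGGA in capitals. For Dazl and Tdrkh, which held no E-box, the 60 bases before the start site are shown with each CpG in capitals.
Tex19.1 (chr11:121146088-121146137, plus strand): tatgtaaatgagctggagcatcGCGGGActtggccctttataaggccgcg
Dazl (chr17:50293621-50293680, minus strand): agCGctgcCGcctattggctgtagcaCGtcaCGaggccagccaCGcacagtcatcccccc
Tdrkh (chr3:94413184-94413243, plus strand): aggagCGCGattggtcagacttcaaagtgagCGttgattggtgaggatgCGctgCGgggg

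**Figure D1:**
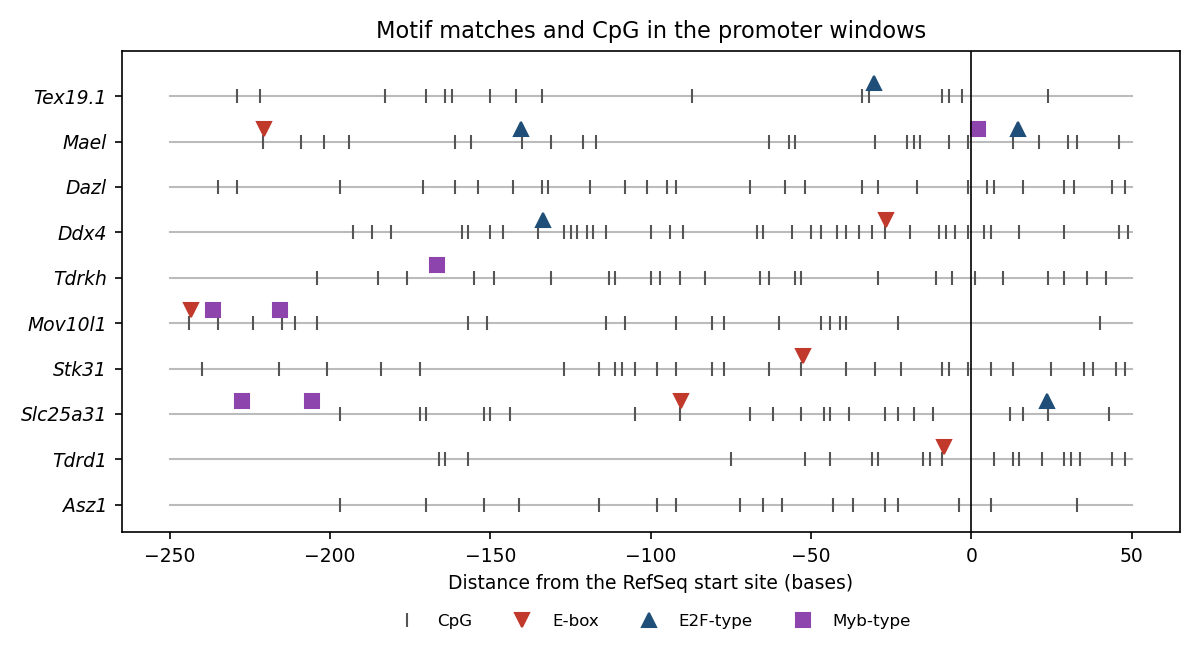
CpG dinucleotides (ticks) and motif matches (symbols) in the RefSeq promoter window of each member, against distance from the start site in bases. E-boxes stand from 246 bases before the start in Mov10l1 (position -246) to 11 bases before it in Tdrd1 (position -11), and each window holds at least 16 CpG.

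The libraries were checked before the members were read. RPKM count reads per transcript length and per mapped reads. Steps in the lowest values put the depth at an estimated 74000000 and 85400000 fragments for the Naa10-KO libraries, and at 50800000 and 51900000 for the WT libraries. The row that joins Naa10 with its neighbour Renbp stood at 28.9 and 34.4 RPKM in Naa10-KO, against 105 and 106 RPKM in WT (limma log2 change -1.71, SE 0.11, adjusted p = 0.0342). All 12 markers of ESCs were listed and summed to 4572 and 5726 RPKM in Naa10-KO and 5382 and 5461 RPKM in WT. The groups overlapped for 7 of them, with a median log2 difference from the WT mean of -0.30 in Naa10-KO replicate 1 and 0.26 in replicate 2. Nanog stood at 175 and 312 RPKM in Naa10-KO and 258 and 253 RPKM in WT, with overlapping groups. Utf1, Tdgf1 and Pou5f1 had both Naa10-KO libraries above both WT libraries, and Dppa5a and Tbx3 had both below. Utf1 had 453 and 445 RPKM in Naa10-KO and 300 and 295 RPKM in WT (limma adjusted p = 0.0646). Dppa5a, joined with Ooep, had 1698 and 2018 RPKM in Naa10-KO and 2476 and 2578 RPKM in WT (limma adjusted p = 0.151). That joined row was the largest part of the sum in every library. The 14 fibroblast markers were all above 0 and summed to 276 and 64.3 RPKM in Naa10-KO replicates 1 and 2, against 111 and 119 RPKM in WT. The 9 primitive endoderm markers summed to 36.0 and 34.9 RPKM in Naa10-KO, against 35.1 and 30.8 RPKM in WT. The median absolute difference in log2(RPKM + 1) was 0.25 within the Naa10-KO pair and 0.05 within the WT pair. In bulk RNA, fewer cells that express a gene and less RNA of it per cell cannot be told apart.

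Of the 9 listed members, 7 had both Naa10-KO libraries below both WT libraries, and in the other 2, Tex19.1 and Tdrd1, the groups overlapped. Over all 14099 rows, 33.9% lay below in this way and 23.6% lay above. Naa10-KO replicate 1 was below both WT libraries in 7 of the 9 members, against 53.0% of all rows, and replicate 2 in 8 of the 9, against 47.9% of all rows. None of the members passed the test across all rows. Limma was run on log2(RPKM + 1), over the 11912 rows that reached 1 RPKM in 2 or more libraries. It called 0 of the 7 tested members at a Benjamini-Hochberg adjusted p under 0.05, against 0.764% of all tested rows. With rows at 0 and small RNA rows left out, the same fit called 0 of 11658 rows. No member is such a row, so the 0 called members are not a trait particular to this list. At an unadjusted p under 0.05 stood 6 of the 7, against 22.1% of all tested rows. Mov10l1 and Stk31 passed the filter through the WT libraries alone and so had to be lower in Naa10-KO. Counts over the 7 therefore carry no weight of their own. Members and lists were also chosen with earlier results of these data known, so their shares are not an independent comparison. With no filter, limma called 0 of the 9 listed members, against 0.284% of all rows. Their median log2 difference was -0.47 and that of all rows was -0.05.

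**Figure D2:**
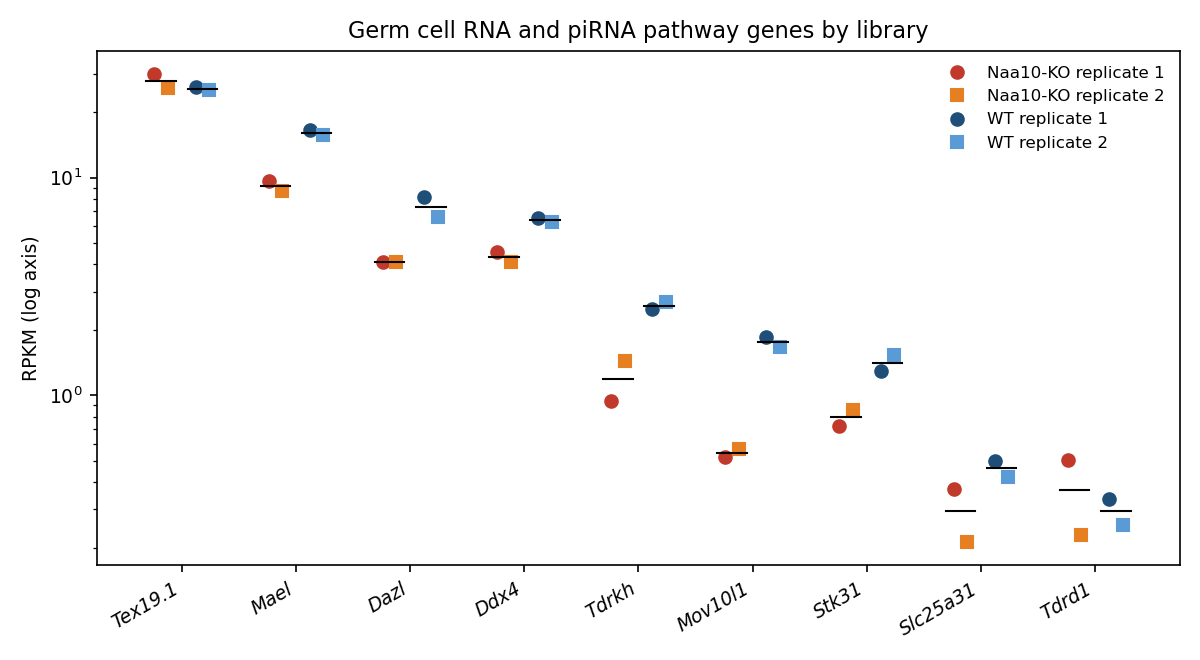
RPKM of the 9 listed members in each library (points, log axis), ordered by WT mean, with Naa10-KO left of WT and a bar at the mean of each pair. Levels ran from 29.9 RPKM for Tex19.1 to 0.214 RPKM for Slc25a31, and the pairs lay apart for every member except Tex19.1 and Tdrd1.

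Among the RNA-binding proteins, Dazl, which binds germ cell mRNAs and promotes their translation, stood at 4.10 and 4.11 RPKM in Naa10-KO and at 8.17 and 6.57 RPKM in WT. Both Naa10-KO libraries were low and almost equal, and the spread lay in the WT pair. The difference was -0.71 on the log2(RPKM + 1) scale (SE 0.14, limma adjusted p = 0.131). Ddx4, the mouse vasa homologue and a DEAD-box RNA helicase of germ granules, had 4.58 and 4.11 RPKM in Naa10-KO and 6.55 and 6.27 RPKM in WT. Its log2 difference was -0.47 (SE 0.11, limma adjusted p = 0.150), and the Naa10-KO mean was 0.678 of the WT mean. The groups did not overlap for either gene, and neither difference passed the threshold.

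Among the genes that make piRNAs or act with them, Mov10l1 had the lowest ratio of all members. Mov10l1 is an RNA helicase that binds piRNA precursors at the start of their processing. It stood at 0.522 and 0.568 RPKM in Naa10-KO and at 1.86 and 1.67 RPKM in WT. Both Naa10-KO libraries were thus at 29.6% and 32.2% of the WT mean (log2 difference -0.84, SE 0.12, limma adjusted p = 0.0958). These levels correspond to an estimated 152 and 191 fragments in Naa10-KO and 372 and 341 fragments in WT, if reads fell on the longest coding transcript. Its span holds the snRNA gene Gm23737 on the same strand in the GENCODE annotation of GRCm38, and how reads shared with it were assigned is not stated in the labels. Tdrkh, a Tudor and KH domain protein of mitochondria that takes part in trimming piRNA ends, had 0.945 and 1.43 RPKM in Naa10-KO and 2.50 and 2.68 RPKM in WT. Naa10-KO replicate 1 was the lower of its pair, and both lay below WT (log2 difference -0.72, SE 0.16, limma adjusted p = 0.141). Tdrkh overlaps Oaz3 and the pseudogene Gm42464 on the other strand and Gm42463 on its own strand in the same annotation, and no label states that strand was used, so reads of these genes cannot be told apart.

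Mael, the Maelstrom protein of germ granules that is required for transposon silencing in the mouse testis, was well measured. It had 9.64 and 8.65 RPKM in Naa10-KO and 16.5 and 15.7 RPKM in WT, or 9.15 ± 0.704 and 16.1 ± 0.564 RPKM (SD, n = 2 each). The gap between the groups was larger than the spread within either pair, and the log2 difference of -0.76 (SE 0.11) had a limma adjusted p of 0.0964. An estimated 1064 and 1102 fragments in Naa10-KO and 1251 and 1216 in WT lay behind these values.

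Tdrd1, a Tudor protein that binds the PIWI protein Mili, was near the lower limit of the tables. Its levels were 0.505 and 0.230 RPKM in Naa10-KO and 0.336 and 0.255 RPKM in WT. Naa10-KO replicate 1 was the highest of the 4 libraries and replicate 2 the lowest, so the groups overlapped. Replicate 1 was also the library with the higher sum of fibroblast markers; whether the marker level has a part in the Tdrd1 value was not tested. Tdrd1 lay under the filter, and the fit with no filter gave a log2 difference of 0.07 (SE 0.14, limma adjusted p = 0.781).

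Tex19.1, a protein of germ cells, placenta and ESCs that restrains retrotransposons, was the member with the highest level and differed in pattern from most others. It stood at 29.9 and 25.8 RPKM in Naa10-KO and at 26.2 and 25.2 RPKM in WT. Naa10-KO replicate 1 was the highest library, and replicate 2 lay between the WT libraries. The log2 difference was 0.11 (SE 0.11, limma adjusted p = 0.561), with a 95% interval of -0.19 to 0.41. An estimated 2019 to 3420 fragments per library lay behind the gene. Its neighbour and close copy Tex19.2 had 1.16 and 1.26 RPKM in Naa10-KO and 1.46 and 1.35 RPKM in WT, and the split of shared reads between the copies is not stated in the labels.

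Stk31 carries a Tudor domain and a kinase domain and is made in germ cells. It had 0.725 and 0.860 RPKM in Naa10-KO and 1.29 and 1.53 RPKM in WT, with both Naa10-KO libraries low (log2 difference -0.43, SE 0.13, limma adjusted p = 0.180). Its span holds the pseudogene Gm17060 on the other strand, so it shares the limit given for Tdrkh. Slc25a31 encodes the ADP/ATP carrier of mitochondria in male germ cells, a gene known to be silenced by promoter methylation in somatic tissue. Its levels were 0.373 and 0.214 RPKM in Naa10-KO and 0.503 and 0.422 RPKM in WT. The groups did not overlap, but only an estimated 53 and 35 fragments in Naa10-KO and 49 and 42 in WT lay behind them. The fit with no filter gave a log2 difference of -0.18 (SE 0.12, limma adjusted p = 0.440). Its relative Slc25a5, the carrier of most dividing cells, stood at 465 and 592 RPKM in Naa10-KO and 403 and 426 RPKM in WT. How reads shared by these relatives were assigned is not stated in the labels, so the Slc25a31 values are uncertain.

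**Figure D3:**
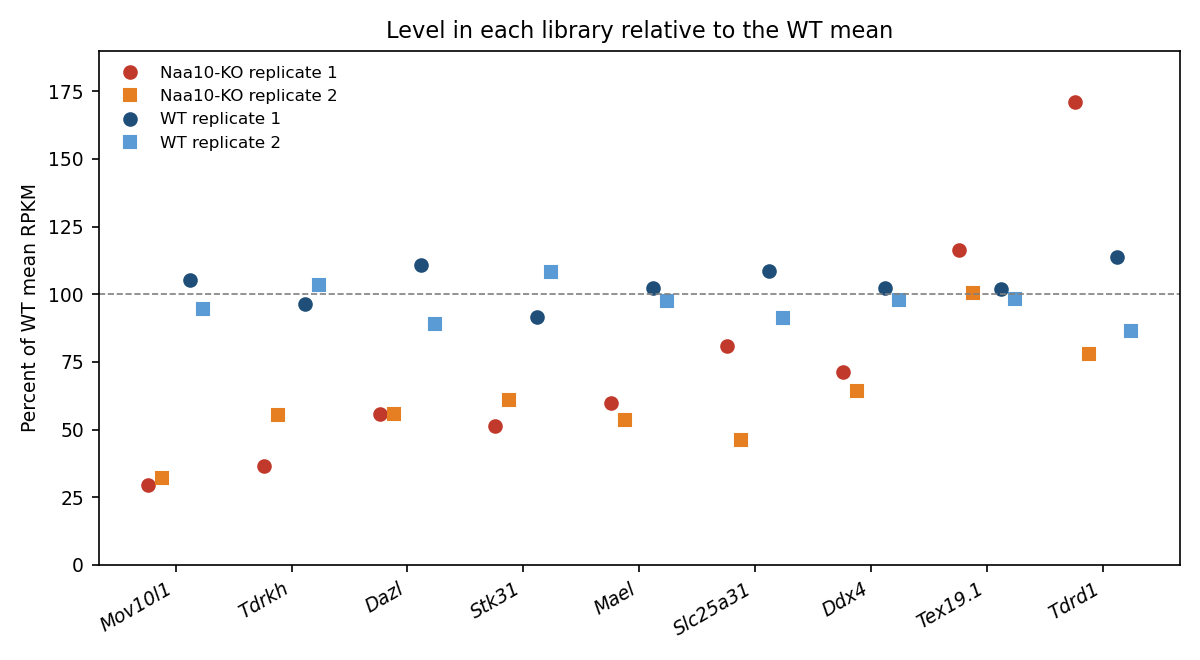
Level of each listed member in each library as a percent of its WT mean (dashed line at 100), ordered by the ratio of group means, with Naa10-KO left of WT. Mov10l1 is lowest, at 29.6% and 32.2% in Naa10-KO, and Tdrd1 has the widest pair, at 171% and 77.9%.

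RPKM are per length, so levels can be set in order. In WT the order was Tex19.1, Mael, Dazl, Ddx4, Tdrkh, Mov10l1, Stk31, Slc25a31 and Tdrd1. Dazl and Ddx4 were neighbours within their spread, since the lower Dazl value of 6.57 RPKM lay next to the higher Ddx4 value of 6.55 RPKM. In Naa10-KO the mean of Ddx4 lay above that of Dazl, that of Stk31 above that of Mov10l1 and that of Tdrd1 above that of Slc25a31, the last with overlapping values. Of the 6 listed members with an E-box in the promoter window, 5 had groups that did not overlap, and Tdrd1 was the exception. Of the 3 without one, Dazl and Tdrkh had groups that did not overlap, and those of Tex19.1 overlapped. Over all 14099 rows, 33.9% had both Naa10-KO libraries below both WT libraries and 23.6% had both above. A link between the E-box and the RNA level was not tested.

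The other piRNA pathway genes, fixed as a list of 26 genes, had 20 rows in the tables. Of the 18 tested rows, 0 passed the limma test in either direction. An unadjusted p under 0.05 was found for 6 of them, against 22.1% of all tested rows. Gpat2 passed the filter through the WT libraries alone and so had to be lower in Naa10-KO. Over all 20 rows with no filter, 12 lay below WT in both Naa10-KO libraries and 1 above, against 33.9% and 23.6% of all rows, and the median log2 difference was -0.29, against -0.05 for all rows. Mybl1, the A-MYB factor that switches on piRNA pathway genes in mouse spermatocytes, had 2.64 and 3.61 RPKM in Naa10-KO and 8.78 and 7.55 RPKM in WT. Its log2 difference was -1.16 (limma adjusted p = 0.1004), the most negative of the list. Tex15, which takes part in piRNA-guided DNA methylation, had 5.49 and 5.21 RPKM in Naa10-KO and 8.56 and 8.66 RPKM in WT (log2 difference -0.60, limma adjusted p = 0.115). Tdrd7, a Tudor protein of germ granules, had 2.34 and 2.59 RPKM in Naa10-KO and 4.17 and 4.20 RPKM in WT (log2 difference -0.58, limma adjusted p = 0.127).

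PIWI proteins themselves were at low levels, given here although the rule for named genes did not take them. Piwil2, the protein Mili, had 1.76 and 2.23 RPKM in Naa10-KO and 3.94 and 3.27 RPKM in WT (limma adjusted p = 0.153). Piwil4, which enters the nucleus of fetal germ cells in mice, had 1.26 and 0.375 RPKM in Naa10-KO and 2.21 and 1.36 RPKM in WT (limma adjusted p = 0.320). Piwil1 had 0.352 and 0.318 RPKM in Naa10-KO and 0.680 and 0.688 RPKM in WT and lay under the filter. These PIWI genes had Naa10-KO values below WT values without passing the threshold. Prmt5, the widely expressed enzyme that methylates arginines of PIWI proteins, had 140 and 151 RPKM in Naa10-KO and 139 and 137 RPKM in WT (limma adjusted p = 0.560). Wdr77, on the same list, had 77.1 and 73.2 RPKM in Naa10-KO and 84.0 and 84.4 RPKM in WT (limma adjusted p = 0.271). Prmt5 and Wdr77 were also named after their values were seen.

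The machinery of microRNAs and siRNAs, which works in most cells, had a median log2 difference of 0.12 over 13 tested rows. In Naa10-KO 3 of the rows lay below WT and 5 above, against 34.9% and 24.4% of all tested rows. Limma called 0 of them, with 3 at an unadjusted p under 0.05, against 22.1% of all tested rows. Tnrc6a, a scaffold of microRNA silencing, had 12.5 and 13.6 RPKM in Naa10-KO and 19.5 and 19.0 RPKM in WT (limma adjusted p = 0.118). Ago2, the slicing Argonaute, had 16.0 and 16.2 RPKM in Naa10-KO and 12.7 and 12.5 RPKM in WT (limma adjusted p = 0.155), and Drosha had 70.0 and 64.7 RPKM in Naa10-KO and 58.4 and 56.8 RPKM in WT (limma adjusted p = 0.222). The list of 8 near relatives of the members shares Mov10, D1Pas1 and Boll with other lists given here. These relatives had a median of -0.05, with 2 below WT and 2 above, against 34.9% and 24.4% of all tested rows. Limma called 0 of them, with 0 at an unadjusted p under 0.05, against 22.1% of all tested rows. Among them Mov10, the relative of Mov10l1 made in most tissues, had 80.8 and 129 RPKM in Naa10-KO and 72.6 and 73.5 RPKM in WT (limma adjusted p = 0.334). D1Pas1, a DEAD-box gene of the testis, had 4.86 and 4.004 RPKM in Naa10-KO and 5.24 and 5.05 RPKM in WT (limma adjusted p = 0.466).

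Germline RNA-binding and translation genes other than the members had a median log2 difference of -0.02 over 13 tested rows. Of these 3 lay below WT and 5 above, against 34.9% and 24.4% of all tested rows. Limma called 0 of them, with 2 at an unadjusted p under 0.05, against 22.1% of all tested rows. Nanos3, a translational repressor that keeps primordial germ cells alive, stood at 1.97 and 1.77 RPKM in Naa10-KO and at 0.409 and 0.682 RPKM in WT (log2 difference 0.90, limma adjusted p = 0.111). It passed the filter through the Naa10-KO libraries alone, and so had to be higher there. Tial1, an RNA-binding protein needed for primordial germ cells, had 33.0 and 28.1 RPKM in Naa10-KO and 16.7 and 16.4 RPKM in WT (limma adjusted p = 0.0925). Ythdc2, a meiotic RNA helicase, had 2.79 and 2.42 RPKM in Naa10-KO and 3.18 and 3.58 RPKM in WT (limma adjusted p = 0.294).

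Genes that specify primordial germ cells had 11 tested rows with a median difference of 0.22. In both Naa10-KO libraries 0 lay below WT and 6 above, against 34.9% and 24.4% of all tested rows. Nanos3, which had to be higher, is among the 6. Limma called 0 of the 11, while 3 had an unadjusted p under 0.05, against 22.1% of all tested rows. Prdm1, the repressor that starts the germ cell fate in mice, had 2.12 and 2.32 RPKM in Naa10-KO and 1.20 and 1.23 RPKM in WT (log2 difference 0.54, limma adjusted p = 0.136). Sall4, a zinc finger factor, had 88.1 and 93.2 RPKM in Naa10-KO and 79.2 and 75.7 RPKM in WT (limma adjusted p = 0.201).

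**Figure D4:**
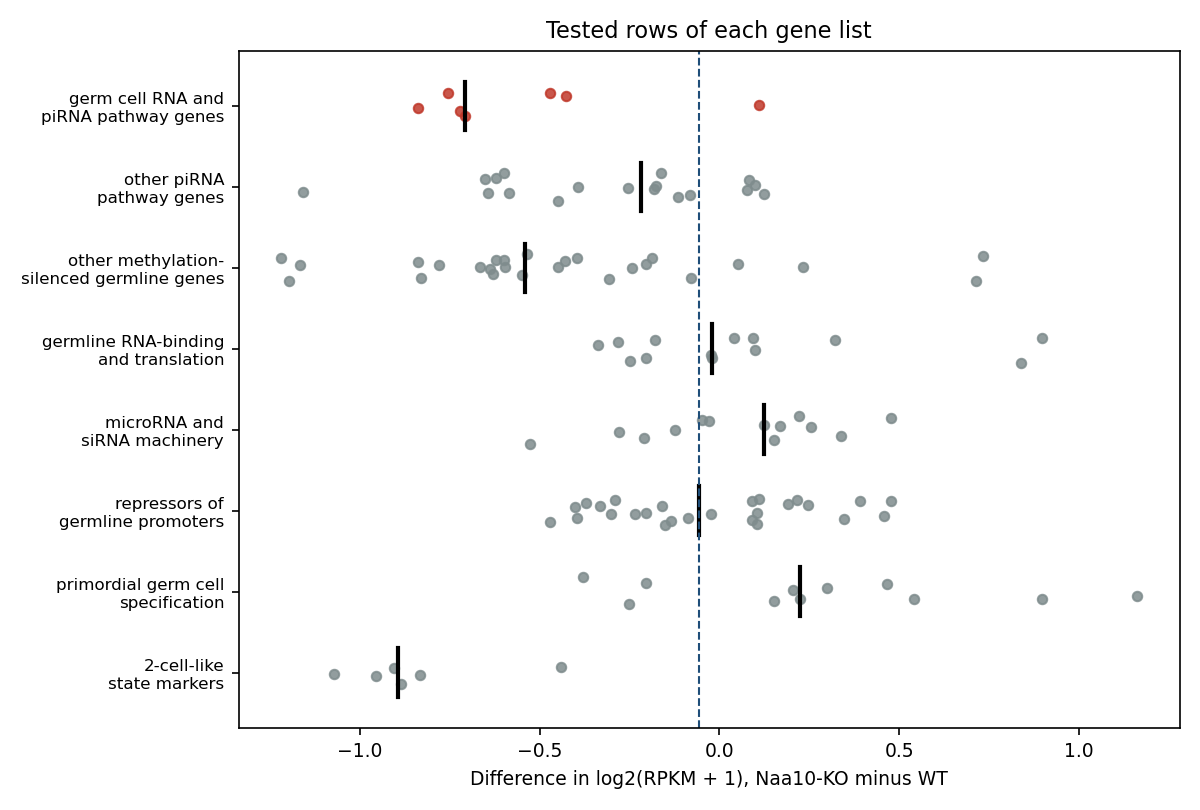
Difference in log2(RPKM + 1), Naa10-KO minus WT, for each tested row (points) of the members and of 7 other gene lists, with the median of each list (black bar) and of all tested rows (dashed line, -0.06). The points include rows whose side the filter fixed, 2 of the 7 members and 5 of the 6 2-cell-like markers among them, so the medians are not to be compared. With no filter the median of the 9 listed members is -0.47.

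Other germline genes that promoter methylation silences in somatic tissue had 31 rows in the tables. With no filter 17 of them lay below WT in both Naa10-KO libraries and 3 above, against 33.9% and 23.6% of all rows, and the median log2 difference was -0.43. Limma called 0 of the 26 tested rows, with 13 at an unadjusted p under 0.05, against 22.1% of all tested rows. Brdt, Ctcfl and Gpat2 passed the filter through the WT libraries alone and so had to be lower in Naa10-KO. Many of these genes were known to be low from earlier results of these data, so the list is not independent of the members. Piwil2, Tex15 and Gpat2 are also counted among the other piRNA pathway genes, so those lists share rows. Sycp3, part of the axis of meiotic chromosomes, had 4.14 and 3.15 RPKM in Naa10-KO and 9.84 and 9.64 RPKM in WT (log2 difference -1.22, limma adjusted p = 0.0863). Zcwpw1, a reader of histone marks in meiosis, had 5.24 and 4.01 RPKM in Naa10-KO and 8.60 and 9.40 RPKM in WT (limma adjusted p = 0.122). Of 12 testis germ cell markers only Stra8 and Ldhc were listed, with the lactate dehydrogenase gene Ldhc at 0.182 and 0.294 RPKM in Naa10-KO and 0.689 and 0.433 RPKM in WT. Stra8, which readies germ cells for meiosis, stood at 5.09 and 1.84 RPKM in Naa10-KO and at 13.5 and 11.4 RPKM in WT (log2 difference -1.69, limma adjusted p = 0.150).

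The repressors of germline promoters, including the subunits of PRC1.6 and the DNA methyltransferases, had all 26 rows tested and a median of -0.06. In Naa10-KO 13 rows lay below WT and 7 above, against 34.9% and 24.4% of all tested rows. Limma called 0 of them, with 11 at an unadjusted p under 0.05, against 22.1% of all tested rows. Atf7ip, a partner of the histone methyltransferase Setdb1, had 62.0 and 61.2 RPKM in Naa10-KO and 45.1 and 42.8 RPKM in WT (limma adjusted p = 0.101). Hdac2, a histone deacetylase, had 47.1 and 49.2 RPKM in Naa10-KO and 58.8 and 60.4 RPKM in WT (limma adjusted p = 0.146). Cbx1, a heterochromatin protein, had 113 and 121 RPKM in Naa10-KO and 141 and 146 RPKM in WT (limma adjusted p = 0.153). The E-box binding subunits Mga and Max, named after their values were seen, had log2 differences of -0.02 and 0.09, with overlapping groups. They do not stand for the list, whose rows lay on either side. Also named after the values were seen, Rybp had 59.4 and 72.2 RPKM in Naa10-KO and 92.5 and 89.9 RPKM in WT. L3mbtl2 had 48.4 and 48.7 RPKM in Naa10-KO and 40.2 and 41.3 RPKM in WT.

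Markers of 2-cell-like cells, which are rare in ESC cultures, are given beside the members. Of 12 such genes 7 were listed, and they summed to 5.28 and 3.31 RPKM in Naa10-KO and to 11.9 and 12.4 RPKM in WT. With no filter 6 of the 7 lay below WT in both Naa10-KO libraries and 0 above, against 33.9% and 23.6% of all rows, and the groups overlapped for Usp17la. Limma called 0 of the 6 tested rows, with 6 at an unadjusted p under 0.05, against 22.1% of all tested rows. Gm5662, Zscan4b, Zscan4c, Zscan4d and Zscan4e passed the filter through the WT libraries alone and so had to be lower in Naa10-KO, with Zscan4f the exception. Zscan4e had 0.606 and 0.345 RPKM in Naa10-KO and 1.74 and 1.76 RPKM in WT (limma adjusted p = 0.104). Zscan4b and Zscan4f had limma adjusted p of 0.111 and 0.127, and reads of these near-identical copies cannot be assigned with certainty. The part of such cells in the members' values was not tested.

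The members' own median profile was taken over the 9 listed genes, as log2(RPKM + 1) minus the WT mean. It was -0.48 and -0.53 in Naa10-KO replicates 1 and 2, and 0.03 and -0.03 in WT replicates 1 and 2. The search ran over the 8788 other tested rows whose mean lay between the lowest and the highest member mean, 0.331 and 26.8 RPKM. By Euclidean distance over the 4 libraries, the 3 nearest of these were Fbxw7, Zscan18 and Mep1b. Fbxw7, a substrate receptor of a ubiquitin ligase, had 9.63 and 9.34 RPKM in Naa10-KO and 14.5 and 13.5 RPKM in WT. Zscan18 had 3.71 and 3.61 RPKM in Naa10-KO and 5.69 and 5.51 RPKM in WT. Mep1b, a subunit of the protease meprin, had 0.516 and 0.419 RPKM in Naa10-KO and 1.13 and 1.02 RPKM in WT. Mep1b passed the filter through the WT libraries alone and so had to be lower in Naa10-KO.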

How the data were processed

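Polyadenylated RNA of 4 mouse ESC libraries was sequenced, and the authors deposited 1 table of RPKM per library, per the file headers. Per the submitters' processing notes, Cufflinks and bedtools were used with build mm9; aligner and annotation: not given in the sources used here. Rows were kept as deposited, and blank rows were dropped. The lowest row maximum was 0.270 RPKM, so genes below it were not analysed here. Of the rows, 323 were listed at 0 in some library and 272 were small RNA rows; no member was among them.

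RPKM hide the depth. Relative depth came from the steps between values of small RNA rows up to 75 nt long. Total depth came from the library size that made low values of genes with 1 transcript over 500 nt whole, assuming fragments of 200 nt. Fragment numbers are estimates and cover counting error only.

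Differences were tested two-sided on log2(RPKM + 1) by limma 3.58.1 (R 4.3.3; trend in the variance) over the 11912 rows that reached 1 RPKM in 2 or more libraries, with Benjamini-Hochberg adjustment over all tested rows. The pseudocount understates changes of low genes. Residual degrees of freedom were 2, with 1.94 more from the prior. The fit was tested on simulated data with the same spread in every library. In these data the Naa10-KO pair differed more than the WT pair (median absolute difference 0.25 and 0.05). The simulation does not cover such unequal pairs. Python 3.11.15 and pandas 2.3.3 were used for tables.

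Members and lists were chosen with earlier results of these data known. Named genes were all members, the 3 rows with the smallest p and any row past the threshold in each pathway list, and the 3 rows nearest to the members' median profile; marker genes serve as checks, and other names are marked in the text or are relatives of members. Alternatives were a pseudocount of 0.1, no filter, no rows at 0 or small RNA rows, quantile normalization, a replicate block and leaving out each library. Promoters came from RefSeq on GRCm38.p6, matched by symbol; no coordinates of the deposited rows were used.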

Additional observations from a re-analysis of the deposited data

How the results depend on the processing

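No tested member changed direction in any of the 63 values computed for the 7 tested members over 9 alternatives; 51 stayed on the same side of the threshold, and the other 12 passed only when a Naa10-KO library was left out. For the 6 tested members whose groups lay apart, another pseudocount or a left-out library could not reverse the sign. No filter, the left-out rows and the replicate block keep each difference as it was. The lack of reversal therefore carries little weight. With all 4 libraries, the limma adjusted p of the 7 tested members lay between 0.0968 and 0.708 over 5 alternatives, and 0 passed. Leaving out 1 library gave 0 to 7 members past the threshold, 12 to 7081 rows in all and a members' median of -0.69 to -0.56. The lone library of a group is then assumed to vary like the other pair, so these counts follow the pair that remains: 4938 and 7081 rows without Naa10-KO replicate 1 or 2, and 12 and 15 without WT replicate 1 or 2. The members' median of -0.71 was -0.81 with a pseudocount of 0.1, -0.47 over 9 rows with no filter and -0.61 after quantile normalization. The medians of all rows in these fits were -0.06, -0.06, -0.05 and -0.008 in the same order. Except with no filter, the members' medians rest on rows that include Mov10l1 and Stk31, whose side the filter fixed. The 91 rows past the threshold became 40 with no filter and 0 without rows at 0 and small RNA rows, where 2624 had an unadjusted p under 0.05. Replicate numbers share only a label: the replicate differences of the pairs had a correlation of -0.21 across rows. The replicate block gave 44 rows and 0 members, and the crossed pairing, chosen after seeing the data, gave 133 rows and 0 members. Slc25a31 and Tdrd1 are limited by their few fragments.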
